A study of Arabidopsis thaliana with 6 samples.

Results

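Transcript levels of 6 genes of the floral meristem and its stem cells were followed in flower buds of Arabidopsis thaliana: WUS (AT2G17950), CLV3 (AT2G27250), CLV1 (AT1G75820), STM (AT1G62360), LFY (AT5G61850) and UFO (AT1G30950). The genes were named by locus, and each was matched by that identifier in every library. They are 6 of the 25964 loci with a read in any of the libraries. All 6 had a read in at least 1 library, 4 had a read in every library, and 4 (WUS, CLV1, STM and LFY) passed the filter on low counts. CLV3 and UFO did not pass it and have no test.

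A flower grows from a meristem whose stem cells are held in place by a feedback loop. WUS, a homeodomain transcription factor made in the cells beneath the stem cells, promotes stem cell fate and switches on CLV3. CLV3 is a secreted peptide that acts through receptors such as the leucine-rich repeat receptor kinase CLV1 to restrain WUS. STM, a KNOX homeodomain protein, keeps meristem cells undifferentiated, while LFY, a plant-specific transcription factor, and UFO, an F-box protein that works with it, give the meristem its floral identity. In the flower the loop is ended when AG, the floral organ identity factor, acts with others to shut WUS off. WUS is also known to be active later, in the ovule and in the anther.

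Buds came from wild-type plants and from atcep1 mutant plants, both of the Columbia background and grown on soil. The mutation lies in the gene of a papain-like cysteine protease, and the labels name no transgene or allele. Each genotype was sampled at 3 classes of anther development, named A for anther stages 5 to 6, B for stages 7 to 9, and C for stages 10 to 11. A single library of bud messenger RNA stands for each combination, 6 in all, and nothing in the labels says whether plants were pooled or whether libraries came from separate plants. The labels therefore give no replicate of any group. Transcript abundance is given as reads and as RPKM, the deposited count scaled by the length of the transcript model and the size of the library.

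The 6 libraries held 25095309 reads in all, and each held 16.1% to 17.6% of them. CEP1 (AT5G50260), the mutated gene, had 0, 1 and 6 reads in wild type at stages A, B and C, against 4, 5 and 6 in atcep1, too few to check the labels by. Reads that match several near-identical relatives may be missing from counts of unique reads, and so the levels of close pairs such as BAM1 and BAM2, AP1 and CAL, or the HAM genes are uncertain. AP3, of petal and stamen identity, was at 210 to 318 RPKM over the libraries, and AP1, of sepal identity, at 145 to 283 RPKM. Not all organ identity genes were so abundant, and AG was at 3.02 to 12.1 RPKM. Of the 16114 loci tested, 2573 were higher in atcep1 (16%) and 1859 lower (11.5%) by edgeR's quasi-likelihood test at a Benjamini-Hochberg adjusted p below 0.05. From library totals without TMM factors the split was 2246 higher and 2253 lower, so the excess of rises depends on the scaling. With 1 library per group, the spread of a locus is how far its genotype difference varied between the 3 stages. That spread has 2 residual degrees of freedom, and edgeR draws it toward a trend over all loci tested. The p-values therefore rest in part on other loci. A change of the genotype difference with stage cannot itself be tested. Marker lists moved with genotype as well. Of 8 tapetum genes, 7 were higher in atcep1 and 0 lower, with a median log2 fold change of 2.04, and their summed level was 25.0 to 598 RPKM in wild type and 243.5 to 1832 RPKM in atcep1. All 8 cell division genes tested were lower in atcep1, with a median of -0.71 and summed levels of 317 to 587 RPKM in wild type and 188 to 339 RPKM in atcep1. The part of these shifts in the results that follow was not tested. DESeq2 made the same counts for both lists, and 0 genes of either list had the opposite direction at an unadjusted p below 0.05.

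The 250 bases before the RefSeq gene start (assembly TAIR10.1, 5′ to 3′ on the gene's strand) are shown for WUS and CLV1, the members that were higher in atcep1, and for LFY, the member that fell with stage. Capitals mark a match to a motif searched on both strands.
WUS, chr2:7810812-7811061, reverse strand: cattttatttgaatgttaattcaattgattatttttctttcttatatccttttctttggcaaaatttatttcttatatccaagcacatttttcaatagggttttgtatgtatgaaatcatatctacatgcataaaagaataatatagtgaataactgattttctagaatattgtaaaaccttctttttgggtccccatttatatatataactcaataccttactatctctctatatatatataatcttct
CLV1, chr1:28466972-28467221, reverse strand: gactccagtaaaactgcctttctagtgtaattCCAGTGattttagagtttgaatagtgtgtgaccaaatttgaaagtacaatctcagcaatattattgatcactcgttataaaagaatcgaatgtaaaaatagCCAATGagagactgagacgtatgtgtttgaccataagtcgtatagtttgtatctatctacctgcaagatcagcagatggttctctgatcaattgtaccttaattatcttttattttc
LFY, chr5:24843998-24844247, forward strand: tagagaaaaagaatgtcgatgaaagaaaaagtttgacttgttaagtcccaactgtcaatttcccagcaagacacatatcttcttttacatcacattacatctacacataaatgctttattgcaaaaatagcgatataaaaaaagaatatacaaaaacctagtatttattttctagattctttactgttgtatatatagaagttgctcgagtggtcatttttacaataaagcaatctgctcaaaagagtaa
The motifs were the LEAFY core CCANTG, the WUSCHEL site TTAATGG, the G-box CACGTG and the MADS-domain CArG box. CLV1 held 2 matches to the LEAFY core, which begin 218 and 117 bases before the gene start, and no other motif was found in the windows of the 6 genes. Over the 27443 windows of protein-coding genes, 20.8% held the LEAFY core, 6.99% the WUSCHEL site, 6.49% the G-box and 2.52% the CArG box. These are matches of letters only. A window without one says no more than that the letters are not in it.

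WUS showed the largest genotype difference among the 4 genes tested. The gene lies on chromosome 2 at 7808871 to 7810795 (TAIR10, reverse strand), with 1 transcript model of 1232 nucleotides. The wild-type libraries of stages A, B and C held 44, 32 and 11 WUS reads, a level of 8.85, 6.34 and 2.10 RPKM. The atcep1 libraries held 51, 101 and 99, a level of 10.0, 19.7 and 18.2 RPKM. The genotypes lay close at stage A, wild type then ended at its lowest value and atcep1 at nearly its highest, and the highest wild-type value lay below the lowest of atcep1. The reads covered 73.6%, 65.3% and 38.9% of the model in wild type and 79.5%, 87.3% and 88.5% in atcep1.

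Across stages WUS was higher in atcep1 by a log2 fold change of 1.54 (SE 0.43, edgeR adjusted p = 0.029, higher in 3 of 3 stages). The value was 2.28 without stage A, 1.48 without stage B and 0.95 without stage C, and the gene was called each time (edgeR adjusted p = 0.00696, 0.0185 and 0.0332). It was not called by limma on log2(RPKM + 1), where the value was 1.43 and the adjusted p = 0.0503, nor on log2(RPKM + 0.1), nor in a fit without the stage term. In buds, more cells that make a transcript and more transcript per cell cannot be told apart.

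Each stage offers a pair of libraries, 1 per genotype, whose exact 95% intervals cover counting error only. The ratio of WUS reads in atcep1 to wild type, per library total, was 1.13 at stage A (0.741 to 1.73), 3.11 at stage B (2.07 to 4.78) and 8.67 at stage C (4.64 to 17.9). The ratio at stage C was 7.58 times that at stage A (3.49 to 17.7), and the ratio at stage B was 2.74 times that at stage A (1.50 to 5.04). The genotypes were therefore not separable by counting at stage A and lay apart at stages B and C.

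**Figure D1:**
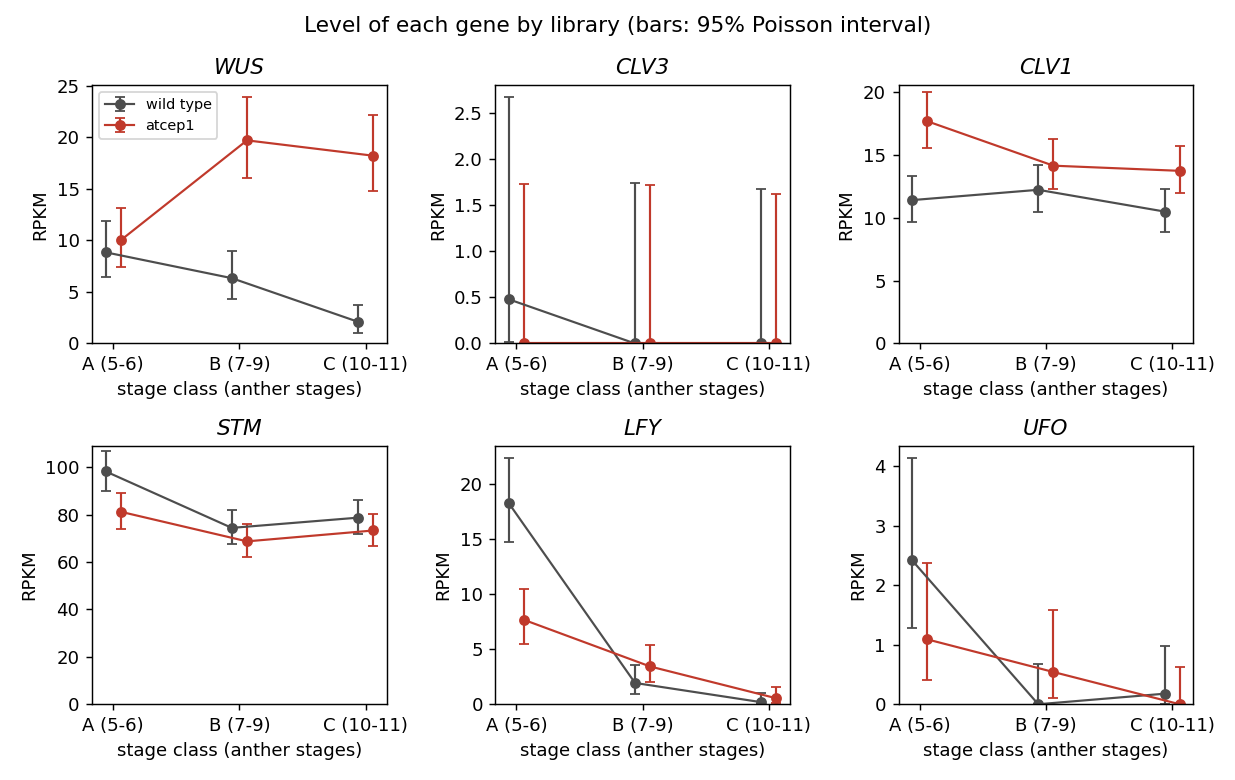
Level of each of the 6 genes by library, in RPKM (y axis, from 0, a scale per gene) against stage class (x axis), with wild type in grey and atcep1 in red; points are single libraries and bars are 95% Poisson intervals of the reads. WUS parts between the genotypes from stage B on, LFY falls with stage in both, and STM stays between 68.75 and 98.3 RPKM.

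Seen along development, the WUS level of the last library lay below that of the first in wild type and above it in atcep1. From stage A to C the wild-type level went to 0.238 times its start (0.111 to 0.468), and from B to C the ratio was 0.332 (0.151 to 0.676). In atcep1 the level at stage C was 1.82 times that at stage A (1.29 to 2.60), with a ratio of 1.97 from A to B (1.39 to 2.81) and of 0.925 from B to C (0.694 to 1.23). Of the loci tested, 74 (0.459%) had this combination, with an A to C ratio below 1 in wild type and above 1 in atcep1. Both counting intervals had to exclude 1, and WUS was the 1 gene among the 4 members tested that had it. The combination is the pattern of WUS itself, so that WUS has it is no test. The reverse combination was not counted. In a fit with stage and genotype as additive terms, which averages the genotypes, WUS did not pass for any step between stages. That fit gave 0.35 from A to B (edgeR adjusted p = 0.833), -0.39 from B to C (0.752) and -0.04 from A to C (0.97).

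Ovule and carpel genes were listed as well, and none of those tested was called higher in atcep1. Which tissue of the bud gave the WUS reads was not tested. Of 9 such genes tested, 0 were higher in atcep1 (1 at an unadjusted p below 0.05, 0 with DESeq2) and 2 lower. Of all loci tested, 16% were called higher and 11.5% lower. The list had a median log2 fold change of -0.20, and none of its 10 genes was at 0 reads in every library. Their summed level was 253 to 440 RPKM in wild type and 231 to 313 RPKM in atcep1, lower in atcep1 at each stage. That sum leans on the most abundant genes, CRC and ANT, which differed. CRC was at 192, 76.25 and 61.5 RPKM in wild type at stages A, B and C, against 129, 114 and 100 in atcep1, so higher at B and C. ANT was at 137, 105.5 and 68.9 RPKM in wild type, against 78.6, 58.3 and 36.2 in atcep1. The sum therefore does not show a fall of the list as a whole. INO, a YABBY factor of the outer integument, had 23, 126 and 128 reads in wild type, against 11, 30 and 60 in atcep1. It fell in atcep1 by 1.43 on the log2 scale (SE 0.25, edgeR adjusted p = 0.00442) and rose from A to B by 2.14 (0.00853). ANT, which promotes organ and ovule growth, fell in atcep1 by 0.81 (SE 0.09, edgeR adjusted p = 0.00048) and from B to C by 0.60 (0.013). NZZ, needed for sporogenous tissue in anther and ovule, had a genotype value of 0.71 that missed the threshold (edgeR adjusted p = 0.0673) and fell from B to C by 1.51 (0.0346). Both genotype calls remained without each stage in turn, while the 3 step calls were each lost without either of a pair of libraries. For INO these were wild-type stage A (1.84, adjusted p = 0.0595) and B (1.45, 0.0987), for ANT wild-type stage B (-0.58, 0.0728) and atcep1 stage B (-0.62, 0.0613), and for NZZ wild-type stage C (-1.37, 0.0588) and atcep1 stage B (-0.96, 0.324).

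CLV3, the peptide that restrains WUS, was at the limit of detection. Its only listed model, on chromosome 2 at 11664986 to 11665769 (reverse strand, 516 nucleotides), had 1 read in wild-type stage A, or 0.480 RPKM, and 0 reads in the other 5 libraries. A floor of 3 reads corresponds to 1.32 to 1.44 RPKM. Every library lay below it, so a level under the floor could not be measured reliably in any library, and no fold is given. RefSeq lists 3 transcripts of CLV3 and the files 1 model with a read. Reads that match several models may be missing from counts of unique reads, so the level may be too low.

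CLV1, the receptor kinase, was modestly higher in atcep1. The gene lies on chromosome 1 at 28463462 to 28466971 (reverse strand), with 1 model of 3431 nucleotides. Wild type had 158, 172 and 153 reads at stages A, B and C (11.4, 12.2 and 10.5 RPKM), and atcep1 had 251, 202 and 208 reads (17.7, 14.15 and 13.7 RPKM). Every atcep1 value lay above every wild-type value. The log2 fold change was 0.47 (SE 0.12, edgeR adjusted p = 0.0248, higher in 3 of 3 stages).

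The CLV1 read ratio was 1.55 at stage A (1.27 to 1.91), 1.16 at stage B (0.939 to 1.43) and 1.31 at stage C (1.06 to 1.62), and the interval of the B ratio includes 1. The stages were not separable from each other by counting: the ratio at stage B was 0.746 times that at stage A (0.556 to 1.002), and that at stage C 0.844 times (0.626 to 1.14). Without stage A the value was 0.36 and the call was lost (edgeR adjusted p = 0.178), and DESeq2 gave 0.48 with an adjusted p of 0.127. In wild type the A to C ratio was 0.920 (0.732 to 1.16) and in atcep1 0.777 (0.643 to 0.937), and with TMM-scaled library sizes the atcep1 ratio was 0.858 (0.711 to 1.04), an interval that includes 1. The additive fit called no step of CLV1, with -0.07 from A to B (edgeR adjusted p = 0.905) and -0.08 from B to C (0.844).

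Counted together, 2 of the 4 members tested, WUS and CLV1, were called higher in atcep1 and 0 lower (0 also at an unadjusted p below 0.05 and with DESeq2), beside 16% and 11.5% of all loci. The same 2 had all 3 atcep1 values above all 3 wild-type values, as had 13.6% of loci tested. The 4 members had a median log2 fold change of 0.18 and all loci tested one of -0.0028. With 4 genes these shares say little about the group.

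**Figure D2:**
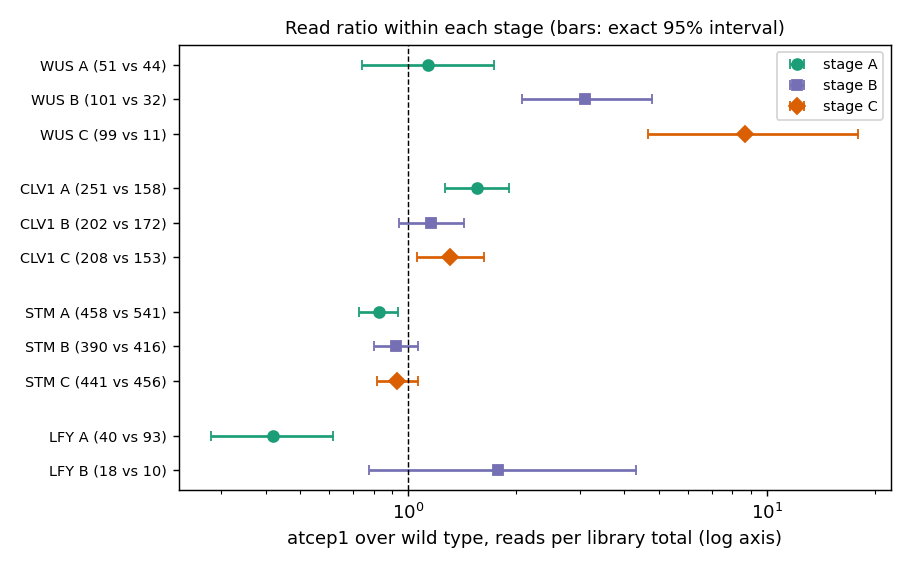
Ratio of reads in atcep1 to wild type per library total (x axis, log scale) at each stage for the 4 genes with reads in every library, with the read numbers in brackets and bars for exact 95% counting intervals; the dashed line is a ratio of 1 and LFY at stage C, at or under the floor, is not drawn. The WUS ratio goes from 1.13 at A to 8.67 at C, while the STM ratios stay between 0.827 and 0.931 (at stage C 1.005 with TMM-scaled library sizes).

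None of the other CLAVATA receptors and signal carriers was called higher with CLV1. Of 17 genes listed, 15 were tested, with a median log2 fold change of -0.23, beside 16% of all loci called higher and 11.5% lower. Of the 15, 0 were higher in atcep1 (0 also at an unadjusted p below 0.05 and with DESeq2) and 2 lower (5 and 0). The 2 were BAM1 and BAM2, receptor kinases closely related to CLV1. BAM1 had 49, 48 and 37 reads in wild type, against 25, 26 and 21 in atcep1, a fall of 0.88 on the log2 scale (SE 0.23, edgeR adjusted p = 0.0221). BAM1 has 2 listed models and BAM2 has 1, so reads shared between the BAM1 models may be missing and its level may be too low. BAM2 was at 37.9 to 75.8 RPKM in wild type and 28.8 to 57.4 RPKM in atcep1, and fell by 0.35 (SE 0.09, edgeR adjusted p = 0.0193). Neither was called without stage A, without stage B or with DESeq2. CLV2, a receptor-like protein without a kinase domain, had a value of -0.26 (edgeR adjusted p = 0.121), its partner pseudokinase CRN one of -0.38 (0.441) and the receptor-like kinase RPK2 one of -0.05 (0.707), none of which passed.

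Genes that work with WUS, or belong to its WOX family, gave 1 rise and 3 falls. Of 16 listed, 9 were tested, and the median was -0.32. DESeq2 called 0 higher and 1 lower of these. Of all loci tested, edgeR called 16% higher and 11.5% lower. WOX2 and WOX11 had 0 reads in every library. WOX6, a WOX gene known from ovule development, had 16, 39 and 20 reads in wild type, against 6, 19 and 2 in atcep1, and fell by 1.52 (SE 0.39, edgeR adjusted p = 0.0221). WOX9, also called STIMPY and needed for meristem growth, was at 61.0 to 94.9 RPKM in wild type and 42.9 to 47.7 RPKM in atcep1, and fell by 0.61 (SE 0.13, edgeR adjusted p = 0.0102).

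The HAIRY MERISTEM genes, GRAS-domain partners of WUS, were called in both directions. HAM2 fell by 0.42 (SE 0.10, edgeR adjusted p = 0.016), HAM3 rose by 0.43 (SE 0.11, edgeR adjusted p = 0.0208) and HAM1 had a value of -0.34 that did not pass (0.128). HAM3 had 219, 195 and 243 reads in wild type, against 263, 297 and 317 in atcep1, so its groups did not overlap. Each of the 4 calls in this list was lost on leaving out stage A or stage B; for WOX9 it was stage B, where the value was -0.42 (edgeR adjusted p = 0.054).

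Regulators that end WUS activity in the flower gave 1 rise and 1 fall among 8 genes tested, with a median of -0.13. DESeq2 called 1 higher and 0 lower of these. Of all loci tested, edgeR called 16% higher and 11.5% lower. AG, which directs stamens and carpels and the end of the meristem, had 29, 19 and 29 reads in wild type, against 65, 77 and 47 in atcep1, or 3.02 to 4.69 RPKM against 6.95 to 12.1 RPKM. It rose by 1.30 (SE 0.27, edgeR adjusted p = 0.00913), with no overlap between the genotypes. It was called without each stage in turn. RefSeq lists 4 AG transcripts and the files 1 model, so its level may be too low.

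PAN, a bZIP factor that activates AG, had 122, 64 and 21 reads in wild type, against 77, 27 and 11 in atcep1, fell in atcep1 by 0.89 (SE 0.21, edgeR adjusted p = 0.0168) and fell at both steps, by 1.13 from A to B (0.0304) and by 1.50 from B to C (0.0218). Its genotype call was lost without stage A (-1.12, adjusted p = 0.0593) and without stage B (-0.72, 0.0972). The A to B call was lost without wild-type stage A (-1.39, 0.064), atcep1 stage A (-0.96, 0.245) or atcep1 stage B (-0.92, 0.177), and the B to C call without wild-type stage B (-1.19, 0.19) or C (-1.49, 0.0789). KNU, a zinc finger repressor of WUS that acts below AG, was too low to be tested, with 37, 3 and 2 reads in wild type, against 10, 4 and 2 in atcep1. Most KNU reads were in the stage A libraries, and the wild-type one had more of them.

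Cytokinin signalling feeds WUS, and 1 of its genes was called between the genotypes. Of 14 genes listed, 10 were tested, with a median of 0.08, beside 16% of all loci called higher and 11.5% lower. Of the 10, 1 was higher and 0 were lower (1 at an unadjusted p below 0.05, 0 with DESeq2). The 1 was AHK3, a cytokinin receptor, with 385, 371 and 397 reads in wild type, against 484, 412 and 511 in atcep1. Its difference was 0.30 on the log2 scale (SE 0.10, edgeR adjusted p = 0.0482). That call was lost without any 1 of the 3 stages, with values of 0.23 to 0.37, and 0 genes of this list were called by DESeq2 or from library totals without TMM factors.

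STM was the most abundant member per length of transcript in every library. The gene lies on chromosome 1 at 23058582 to 23061722 (reverse strand), with 1 model of 1363 nucleotides. Wild type had 541, 416 and 456 reads at stages A, B and C (98.3, 74.4 and 78.8 RPKM), and atcep1 had 458, 390 and 441 reads (81.25, 68.75 and 73.3 RPKM). Wild-type stage A stood highest and the genotypes overlapped. The log2 fold change was -0.11 (SE 0.10, edgeR adjusted p = 0.411), which did not pass.

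The STM read ratio was 0.827 at stage A (0.728 to 0.938), 0.924 at stage B (0.802 to 1.06) and 0.931 at stage C (0.815 to 1.06). With TMM-scaled library sizes the stage C ratio was 1.005, so its direction depends on the scaling. From A to B the ratio was 0.757 in wild type (0.665 to 0.862) and 0.846 in atcep1 (0.737 to 0.971). With TMM-scaled library sizes the atcep1 ratio was 0.877 (0.764 to 1.006), an interval that includes 1. The additive fit gave -0.27 for A to B (edgeR adjusted p = 0.315) and 0.14 for B to C (0.619). None of these steps was called.

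KNOX, BELL and boundary genes, among them partners and opponents of STM, gave calls in both directions. Of 13 tested, 2 were higher and 3 lower in atcep1, beside 16% and 11.5% of all loci, with a median of 0.10. DESeq2 called 0 higher and 2 lower, and 1 was higher from library totals without TMM factors. CUC2, a NAC factor that marks organ boundaries and activates STM, had 112, 71 and 54 reads in wild type, against 63, 29 and 24 in atcep1, and fell by 1.05 (SE 0.19, edgeR adjusted p = 0.00577). AS1, a MYB factor that represses KNOX genes in organ primordia, fell by 0.55 (SE 0.10, edgeR adjusted p = 0.00473) and again from B to C by 0.51 (0.0414). ATH1, a BELL partner of STM, fell by 0.39 (SE 0.10, edgeR adjusted p = 0.0241).

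On the other side, BOP1, a BTB-ankyrin protein of organ boundaries, had 16, 11 and 13 reads in wild type, against 20, 28 and 32 in atcep1 and rose by 1.00 (SE 0.31, edgeR adjusted p = 0.0446). PNF, a BELL factor, rose by 0.65 (SE 0.19, edgeR adjusted p = 0.0359). PNY, the related BELL partner of STM, was at 56.8 to 61.4 RPKM in wild type and 60.3 to 61.9 RPKM in atcep1 (0.10, edgeR adjusted p = 0.451), and KNAT1, another KNOX gene, had a value of 0.30 (0.124). BEL1, a BELL factor of the ovule, rose from A to B by 0.84 (edgeR adjusted p = 0.0207). CUC2 alone among the 5 genotype calls held without each stage: AS1, ATH1 and PNF were lost without stage A, ATH1, BOP1 and PNF without stage B, and BOP1 and PNF without stage C. BEL1 was lost without the wild-type stage A library (0.60, adjusted p = 0.203) or stage B library (0.69, 0.0861), and the AS1 step without wild-type stage C (-0.49, 0.0553), atcep1 stage A (-0.50, 0.0756) or atcep1 stage B (-0.39, 0.398).

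**Figure D3:**
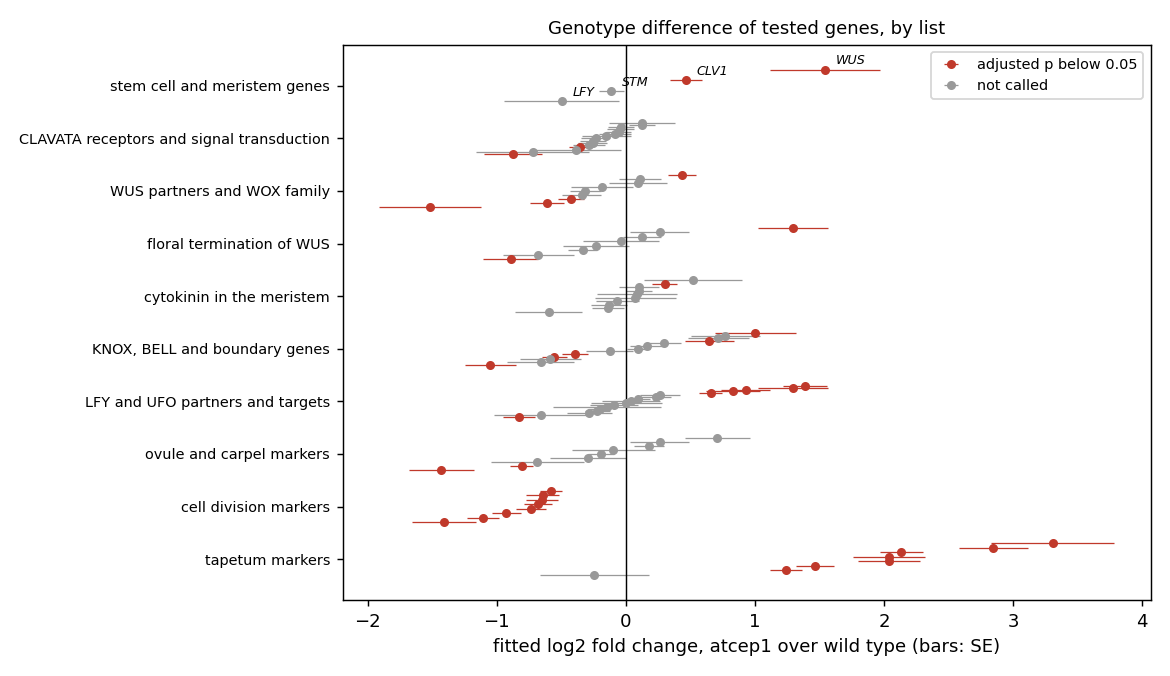
Fitted log2 fold change of atcep1 over wild type (x axis) for each tested gene of the 10 lists (rows), with bars for the SE; red marks an adjusted p below 0.05. WUS and CLV1 lie above 0 at 1.54 and 0.47, the cell division genes all lie below 0, and the meristem lists spread to both sides.

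LFY fell with development, and in both genotypes its reads were fewest at stage C. The gene lies on chromosome 5 at 24844295 to 24846933 (forward strand), and the files list 1 model of 1263 nucleotides where RefSeq has 2 transcripts, so its level may be too low. Wild type had 93, 10 and 1 reads at stages A, B and C (18.2, 1.93 and 0.186 RPKM), and atcep1 had 40, 18 and 3 reads (7.66, 3.42 and 0.538 RPKM). The stage A libraries stood above all others, and the stage C libraries were at or under the floor of 3 reads.

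From A to C, LFY fell by 4.91 on the log2 scale in the additive fit (SE 0.67, edgeR adjusted p = 0.00106), and it was called under every alternative run, at -3.26 to -6.19. It was the 1 member of 4 called lower for that change, with 0 higher, beside 7.27% of loci lower and 12.1% higher. From library totals without TMM factors the median of all loci shifted by -0.10 for that change, and the calls were 1646 higher and 1635 lower in place of 1946 and 1171.

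LFY was also the 1 member called lower from A to B, at -2.14 (SE 0.47, edgeR adjusted p = 0.0391), with 0 higher, beside 0.484% of loci lower and 4.36% higher. That call rested on the wild-type libraries: it was lost without wild-type stage A (-1.07, edgeR adjusted p = 0.459) and without wild-type stage B (-1.23, 0.333), and without atcep1 stage A the value was -3.25 (0.00686). From B to C the value was -2.78 (SE 0.87, edgeR adjusted p = 0.119), and 0 of the 4 members were called in either direction (LFY alone at an unadjusted p below 0.05, and 0 with DESeq2), beside 2.36% of loci lower and 4.28% higher. That step came under the threshold without wild-type stage A (-2.76), wild-type stage B (-3.70), atcep1 stage A (-2.74) or atcep1 stage C (-4.03).

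From A to B the LFY ratio was lower in wild type than in atcep1, beyond counting error, the only error that the intervals cover. The B to A ratio was 0.106 in wild type (0.0492 to 0.204) and 0.447 in atcep1 (0.241 to 0.798). At stage A the ratio of atcep1 to wild type was 0.420 (0.282 to 0.615) and at stage B 1.77 (0.776 to 4.30). Both stage C libraries were at or under the floor, and no ratio is given there. The stage B ratio was 4.18 times the stage A ratio (1.66 to 11.1). Across stages the genotype value was -0.50 (SE 0.44, edgeR adjusted p = 0.43), which did not pass, and it had the opposite sign without stage A, at 0.94 (0.26), with DESeq2, at 0.0025, and by limma on log2(RPKM + 0.1), at 0.24.

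UFO was low but had its reads where LFY had its own. The gene lies on chromosome 1 at 11036180 to 11037508 (forward strand), with 1 model of 1329 nucleotides. Wild type had 13, 0 and 1 reads at stages A, B and C (2.42, 0 and 0.177 RPKM), and atcep1 had 6, 3 and 0 reads (1.09, 0.542 and 0 RPKM). Most of the 23 reads were in the stage A libraries. A floor of 3 reads corresponds to 0.512 to 0.559 RPKM, so only the stage A libraries lay above it. At stage A the ratio of atcep1 to wild type was 0.451 (0.140 to 1.27), which counting cannot tell from 1. In wild type the C to A ratio was 0.0731 (0.00172 to 0.487).

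Partners and targets of LFY and UFO gave 5 rises and 1 fall in atcep1. Of 22 listed, 17 were tested, and the calls stand beside 16% of all loci higher and 11.5% lower, with a median of 0.04 beside -0.0028 for all loci. Of the 5, FUL, a MADS-domain gene of fruit and meristem identity, had 41, 42 and 39 reads in wild type, against 100, 109 and 107 in atcep1, a rise of 1.39 on the log2 scale (SE 0.17, edgeR adjusted p = 0.000764). AP1, the sepal and floral meristem identity gene, rose by 0.66 (SE 0.09, edgeR adjusted p = 0.00138), from 145 to 184 RPKM in wild type to 235 to 283 RPKM in atcep1. Its close relative CAL rose by 0.83 (SE 0.21, edgeR adjusted p = 0.0213), and the flowering-time gene SOC1 by 0.93 (SE 0.19, edgeR adjusted p = 0.00869). The fifth was AG, given above.

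MYB17, a target of LFY, was the 1 that fell, by 0.83 (SE 0.13, edgeR adjusted p = 0.00227), with 291, 210 and 138 reads in wild type, against 148, 136 and 72 in atcep1. AP3, a petal and stamen gene that UFO and LFY activate, had a value of 0.23 (edgeR adjusted p = 0.159), TFL1, which keeps the inflorescence growing, one of -0.15 (0.818), and ASK1, the SKP1-like partner of UFO, one of -0.22 (0.113). None of these passed. FUL, AG, AP1, SOC1 and MYB17 were called without each stage in turn, and CAL was lost when stage A (0.82, edgeR adjusted p = 0.102) or stage B (0.66, 0.109) was left out. RBX1 had 0 reads in every library. The files list 1 model each for AP1, FUL and SOC1, which have 2 or 3 RefSeq transcripts, so their levels may be too low.

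Genes of this list also fell along development. FD, the bZIP partner of the flowering signal FT, had 147, 58 and 12 reads in wild type, against 123, 60 and 13 in atcep1, nearly alike in the genotypes. It fell by 1.15 from A to B (edgeR adjusted p = 0.0135) and by 2.25 from B to C (0.00311). AGL24, a MADS-domain gene of the inflorescence, had 44, 18 and 5 reads against 37, 22 and 6 and fell from B to C by 1.86 (edgeR adjusted p = 0.0388). The B to C fall of FD held without each library; its A to B fall was lost without wild-type stage A (-0.98, adjusted p = 0.17), wild-type stage B (-1.05, 0.082) or atcep1 stage A (-1.34, 0.0617). The AGL24 fall was lost without wild-type stage C (-1.67, 0.125), atcep1 stage B (-1.64, 0.224) or atcep1 stage C (-2.06, 0.0582).

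From A to C, 12.1% of all loci were higher and 7.27% lower, and the lists gave these falls and rises: 5 against 0 of 15 CLAVATA genes tested, 1 against 0 of 9 WUS partners, 2 against 1 of 8 termination genes, 1 against 0 of 10 cytokinin genes, 4 against 1 of 13 KNOX, BELL and boundary genes and 5 against 0 of 17 LFY and UFO genes. Among the 4 lists with 0 rises, that of the WUS partners held 1 at an unadjusted p below 0.05 and the others 0, and DESeq2 called 0 rises in each. The single falls among WUS partners and cytokinin genes were not called by DESeq2 either, and both were lost without some libraries. They were PRS, a WOX gene (without wild-type stage A -1.16, edgeR adjusted p = 0.113, atcep1 stage A -1.13, 0.132, or atcep1 stage C -0.99, 0.0884), and the cytokinin response regulator ARR10 (without wild-type stage A -0.54, 0.163, or wild-type stage C -0.44, 0.0727), both named after their values were seen. From library totals without TMM factors each of these lists held 3 falls. Of the 9 ovule and carpel genes tested, 3 fell and 4 rose, where DESeq2 called 3 lower and 1 higher. All 8 tapetum and all 8 cell division genes fell, where DESeq2 called 8 and 5 of them lower. BAM2, the 1 CLAVATA gene named by step, fell from B to C by 0.54 (edgeR adjusted p = 0.0218), a call lost without wild-type stage B (-0.50, 0.142), atcep1 stage A (-0.53, 0.0605) or atcep1 stage B (-0.57, 0.107).

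Within each stage 1 member passed a fold threshold. By a difference of at least 2-fold on log2(RPKM + 1) with the higher RPKM at least 5, LFY alone of 4 members that could be counted differed at stage A (all such loci: 9.48%), WUS alone of 3 at stage B (10.6%) and WUS alone of 3 at stage C (12%). By the counting interval of the read ratio, CLV1, STM and LFY excluded 1 at stage A (3 of 4 tested, all loci 40.6%), WUS at stage B (1 of 4, 41.9%) and WUS and CLV1 at stage C (2 of 4, 46.6%). These intervals hold no variation between plants.

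Set in order of level, neighbouring libraries were often not separable by counting, from library totals. For WUS the order was atcep1 stage B, C and A, then wild-type stage A, B and C, and steps in that order were separable between atcep1 C and A and between wild-type B and C. For CLV1, atcep1 stage A stood above atcep1 stage B, and the rest ran on without a separable step down to wild-type stage C. For STM, wild-type stage A stood apart from atcep1 stage A. For LFY, wild-type A, atcep1 A and atcep1 B were separable in turn, and no neighbours from atcep1 B down were. No neighbours were separable for UFO or CLV3.

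Loci with the most similar profile were sought by Pearson's r of log2(RPKM + 1) over the 6 libraries among 12892 loci with a mean RPKM of at least 5. The libraries are the same for both genes of a pair, so the values are descriptions. For WUS they were ADL1B, a dynamin-like gene, at 0.991, AT5G03210 at 0.990 and AT2G19710 at 0.968, and 12 loci reached 0.95. ADL1B had 5.14, 4.31 and 2.69 RPKM in wild type and 6.03, 9.11 and 7.89 RPKM in atcep1. For CLV1 they were the sugar transporter gene SWEET17 at 0.995, AT5G55400 at 0.986 and AT3G26700 at 0.985, with 52 loci at 0.95 or above.

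For STM the closest loci were AT4G17960 at 0.990, AT1G78550 at 0.988 and AT2G46900 at 0.987, and 25 loci reached 0.95. For LFY they were AT1G04645 at 0.995, the ribosomal protein gene AT3G05560 at 0.994 and AT3G12430 at 0.991, and 133 did. AT1G04645, annotated as a relative of plant self-incompatibility proteins, had 30.1, 5.92 and 1.43 RPKM in wild type and 15.7, 6.81 and 2.29 RPKM in atcep1. None of the 12 loci named was on a list of meristem genes. CLV3 and UFO had too few reads for such a profile.

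**Figure D4:**
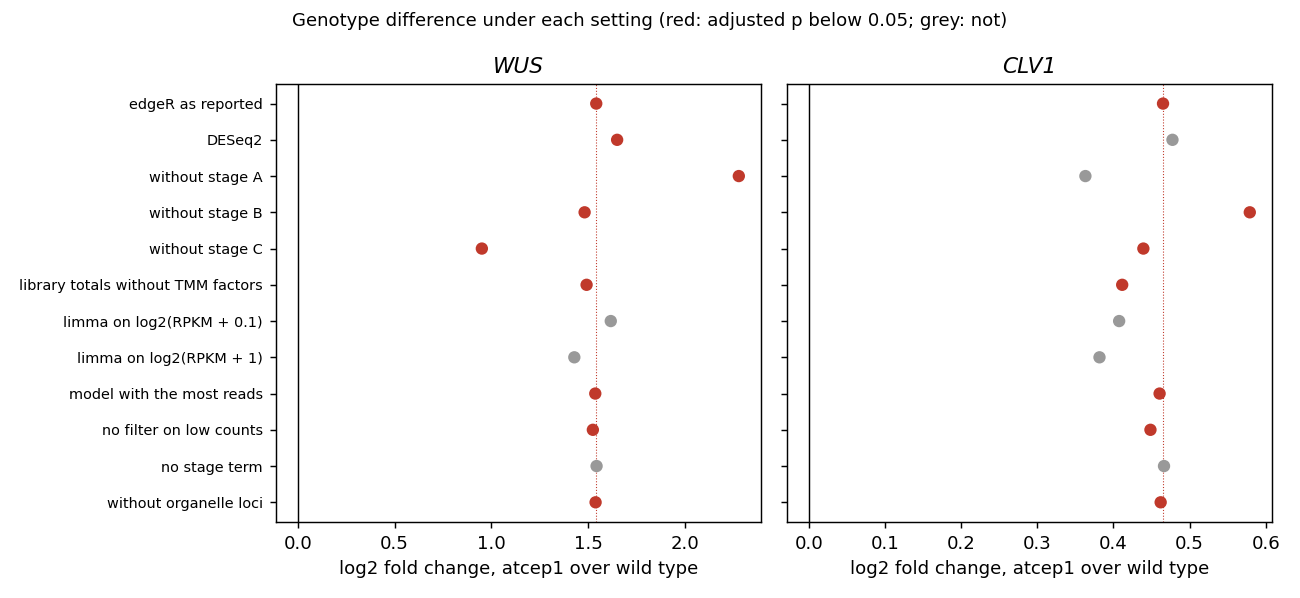
Log2 fold change of atcep1 over wild type (x axis, a scale per gene, the black line is 0) for WUS and CLV1 under each setting (rows); red marks an adjusted p below 0.05, grey none, and the dotted line is the value as reported. WUS stays between 0.95 and 2.28 and CLV1 between 0.36 and 0.58, with 3 grey points for WUS and 5 for CLV1.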

How the data were processed

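Each library has its own deposited table, in which, per the file headers, a transcript model carries a count of unique reads, the percent of its length that they cover (used to describe WUS) and an RPKM. The submitters' processing notes name TAIR10 as the genome build. No aligner or counter is given in the sources used here. No strand-marking kit is described, and 0 other annotated genes overlap the 6 members. A model absent from a table was given 0 reads. Of 28427 models compared, 98.7% lie within the RefSeq gene span of TAIR10.1, from which promoters were read.

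Counts and RPKM of 30088 models were summed to 25964 loci. The test used R 4.3.3 and edgeR 4.0.16 (filterByExpr by genotype, TMM factors, quasi-likelihood F test, Benjamini-Hochberg adjustment over 16114 loci) on all 6 libraries, with stage and genotype as additive terms and 2 residual degrees of freedom. SEs were derived from the fold change and its F value, and a call is an adjusted p below 0.05. P-values measure only the spread between these libraries, shared in part across loci by the fit, and that spread may be technical. Read ratios per library total carry exact conditional 95% binomial (Clopper-Pearson) intervals and levels exact Poisson intervals, for counting error only; PCR copies are not independent molecules. The floor is 3 reads.

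The members and the 9 gene lists (118 loci) were chosen with earlier results of these data known. Named genes are the members, 16 direct partners, per list up to 4 genes called for genotype and 3 for a step with a mean RPKM of at least 1, and 3 loci of like profile per member with a mean of at least 10 reads. The tapetum and cell division lists are described as lists only. Alternatives were DESeq2 1.42.0, limma 3.58.1 on log2(RPKM + 1) and log2(RPKM + 0.1), no TMM factors, no filter, no stage or genotype term, the model with the most reads, no organelle loci, and leaving out libraries.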

Additional observations from a re-analysis of the deposited data

Results flagged for a closer look

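The WUS levels of the genotypes went in opposite directions along development. From stage A to stage C its reads per library total went to 0.238 times their start in wild type and to 1.82 times in atcep1. Each value rests on 1 library per stage and genotype, so the difference was not tested across libraries.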

How the results depend on the processing

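The direction and the call of LFY from A to C held under every alternative, as did the direction of WUS and CLV1 between genotypes. Loci called for genotype numbered 4432, with DESeq2 2283 and without the stage term 495; for A to B 780, and 1 without the genotype term; for B to C 1069, with DESeq2 597, limma 365 (pseudocount 0.1) and 690 (pseudocount 1), and 0 without the genotype term; for A to C 3117, with DESeq2 2025 and without the genotype term 518. Leaving out a stage or a library gave 2310 to 4891 loci for genotype, 449 to 1682 for A to B, 706 to 1508 for B to C and 1869 to 3739 for A to C, lowest without stage A, atcep1 stage A, atcep1 stage B and atcep1 stage A. Members called for genotype were 2, with DESeq2 1 and 0 with limma (both pseudocounts) or without the stage term, and 1 to 2 without a stage. Those called for A to B were 1, and 0 with DESeq2, limma (both pseudocounts) or no genotype term, and 0 to 1 without a library. Those called for B to C were 0, and 0 to 2 without a library. Values that changed sign, none of them called before or after, were WUS from A to B without atcep1 stage A (-0.84), from B to C without wild-type stage C (0.23) and from A to C without wild-type stage A (0.77), wild-type stage C (0.68) or the genotype term (0.25). They were also CLV1 from A to B without atcep1 stage A (0.07) or B (0.12), from B to C without wild-type stage B (0.094) and from A to C without atcep1 stage A (0.0009), and LFY for genotype with DESeq2 (0.0025), limma with pseudocount 0.1 (0.24) and without stage A (0.94). Ranges over left-out libraries or stages were -0.84 to 1.26 for WUS from A to B, -2.04 to 0.23 from B to C and -1.60 to 0.77 from A to C; -0.25 to 0.12, -0.26 to 0.094 and -0.29 to 0.0009 for CLV1 in the same order; and -1.01 to 0.94 for LFY between genotypes. WUS from B to C was called without atcep1 stage C (-2.04, edgeR adjusted p = 0.0323). The log2 RPKM ratio of WUS at stage C was 2.63, and 1.71 with a pseudocount of 5. The cause of these changes was not tested, except that leaving out libraries leaves fewer residual degrees of freedom. No paired analysis was possible because the labels give no replicate numbers; the stage term of the additive fit already compares the 2 libraries of each stage with each other, and its removal is the fit without the stage term above. Of 21 genes called for genotype in the 7 meristem and ovule lists, 8 were called without each stage and 10 with DESeq2. Depth limits CLV3, UFO and LFY at stage C, which had 3 reads or fewer in several libraries.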
